A study of Rattus norvegicus with 4 samples.

Results

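The 76 genes described here encode G protein-coupled receptors of the rat choroid plexus, the epithelium of the brain ventricles that secretes cerebrospinal fluid. They are what is left of the 106 G protein-coupled receptors that the study listed for the male choroid plexus once the frizzled receptors and SMO, the adhesion receptors, and the serotonin 2C, endothelin, corticotropin-releasing hormone and GABA-B receptors are set aside. The deposited files hold 32883 Ensembl gene IDs in all. The highest of the 76 genes were ACKR3, GPR146, TPRA1, GPRC5C and GPR107. The genes were divided into 8 classes by their known ligands, namely 21 orphan and other GPR-named genes, 8 chemokine, 8 purine, 13 lipid mediator, 4 complement and chemerin, 10 peptide and protease, 7 amine, and 5 metabolite, steroid and sensory receptors. A gene entered the study's list with at least 0.5 TPM (a transcript level scaled for gene length that sums to 1000000 in each library) in the male choroid plexus, so that their presence there is not a result. The lowest members were ADRA1B with 0.53 TPM, ADCYAP1R1 with 0.55 TPM, CXCR3 with 0.56 TPM and GPR84 with 0.57 TPM, and receptors just under the cut-off were not analysed here.

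RNA was sequenced from 4 libraries of Sprague Dawley rats aged 9 weeks, with 1 library for each condition. Whole choroid plexus of the lateral ventricles and of the fourth ventricle was pooled from 5 male rats for one library and from 5 female rats for another. Choroid plexus of 10 male rats was digested with collagenase and sorted by FACS (fluorescence-activated cell sorting) with an antibody against an extracellular part of NKCC1, a cotransporter of the epithelial cells, to give the FACS library. Kidney proximal tubules of the male rats were freed with collagenase and pronase, picked under a microscope and pooled from 5 animals. Whole choroid plexus also holds vessels, stroma and immune cells. No library was repeated, so the differences given here were not checked in replicates, and neither p-values nor a spread over animals could be computed.

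A G protein-coupled receptor crosses the membrane with 7 helices and, when its ligand binds outside, activates a G protein inside the cell. Receptors that couple to Gs raise cyclic AMP, those that couple to Gi lower it, and those that couple to Gq release calcium from internal stores. In the choroid plexus such receptors are studied as a means by which hormones, transmitters and metabolites act on fluid secretion. Chemokine and complement receptors are best known from leukocytes, where they steer migration, purine receptors respond to adenosine or to extracellular nucleotides, and an orphan receptor is one without an agreed ligand.

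Expected counts, the number of fragments that RSEM assigned to genes, summed to between 23873318 and 28324976 per library, so that 3 counts were between 1.06e-05% and 1.26e-05% of a library. Mitochondrially encoded genes held 4.32% to 5.34% of the counts in the choroid plexus libraries and 70.7% in the proximal tubule library. The 76 receptors held 0.0806% of the counts of the male choroid plexus (95% Wilson interval 0.0796 to 0.0817%), 0.0765% in the female choroid plexus (0.0754 to 0.0776%), 0.117% in FACS epithelial cells (0.115 to 0.118%) and 0.00552% in the proximal tubule library (0.00524 to 0.00582%). These intervals and the floor of 3 counts cover counting error only. All 12 epithelial marker genes were present in the FACS library, but the TPM of 10 was lower there than in the male choroid plexus, among them SLC12A2, which encodes the sorted NKCC1 (150 against 268 TPM), KCNJ13 (685 against 1372 TPM) and SLC4A5 (314 against 881 TPM). TTR (389655 against 238565 TPM) and FOLR1 (2725 against 2058 TPM) were higher. Over the 13598 genes that reached 0.5 TPM in the male tissue, the median log2 ratio of FACS to male was -0.66. Relative to it the 12 markers had a median of -0.06, with SLC12A2 at -0.17, KCNJ13 at -0.34 and SLC4A5 at -0.82. By this measure 2 of the 12 were at least 2-fold higher and 0 as much lower. Of 16 macrophage and leukocyte markers 4 had a name in the sources, and the TPM of these 4 was higher in the FACS library. CSF1R had 16.5 TPM in male, 10.7 TPM in female and 79.1 TPM in FACS. CD74 had 345, 209 and 2556 TPM, and LYZ2 had 468, 320 and 1939 TPM. FLT3 differed least, with 6.73, 7.30 and 8.32 TPM.

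Promoter sequences are shown for ACKR3 and GPR146, the most abundant chemokine and orphan receptors of the male tissue, for CXCR4, which was among the receptors highest in the FACS library, and for P2RY4, which had the lowest centred ratio of that library to the male tissue. Each is the run of 250 bases before the RefSeq gene start on the assembly GRCr8, given 5′ to 3′ on the strand of the gene, and the assembly differs from the Rnor_6.0 of the deposited values. Capitals mark TATAAA in ACKR3 and CXCR4, GGGCGG in GPR146 and GAGGAA in P2RY4, on either strand. ACKR3 lies on chr9:98247104-98247353 (plus strand), CXCR4 on chr13:42634289-42634538 (minus strand), GPR146 on chr12:20381012-20381261 (minus strand) and P2RY4 on chrX:69728527-69728776 (minus strand).
ACKR3: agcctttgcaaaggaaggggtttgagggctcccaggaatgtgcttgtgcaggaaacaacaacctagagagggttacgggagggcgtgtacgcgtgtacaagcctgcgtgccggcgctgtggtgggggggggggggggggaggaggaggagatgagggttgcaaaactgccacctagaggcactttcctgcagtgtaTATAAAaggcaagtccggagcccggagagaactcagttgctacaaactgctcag
GPR146: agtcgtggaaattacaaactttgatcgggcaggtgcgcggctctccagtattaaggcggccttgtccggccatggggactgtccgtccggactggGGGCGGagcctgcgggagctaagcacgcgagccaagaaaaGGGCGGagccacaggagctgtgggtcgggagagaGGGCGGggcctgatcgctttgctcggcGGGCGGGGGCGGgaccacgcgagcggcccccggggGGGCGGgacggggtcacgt
CXCR4: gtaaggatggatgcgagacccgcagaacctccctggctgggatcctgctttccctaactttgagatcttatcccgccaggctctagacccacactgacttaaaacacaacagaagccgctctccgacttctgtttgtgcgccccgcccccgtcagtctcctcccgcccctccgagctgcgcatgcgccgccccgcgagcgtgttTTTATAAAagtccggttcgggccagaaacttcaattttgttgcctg
P2RY4: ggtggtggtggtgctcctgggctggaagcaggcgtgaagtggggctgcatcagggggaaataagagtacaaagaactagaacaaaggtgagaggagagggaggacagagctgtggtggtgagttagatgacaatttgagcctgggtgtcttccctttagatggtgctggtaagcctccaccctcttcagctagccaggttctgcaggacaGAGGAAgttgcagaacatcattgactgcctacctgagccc

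The TATAAA of ACKR3 began 54 bases before the gene start, and in CXCR4 the capitals are TATAAA and its reverse complement TTTATA, which overlap and began 46 bases before the start. GPR146 held 6 copies of GGGCGG and 27 CpG dinucleotides, whereas P2RY4 held 1 CpG and its GAGGAA began 40 bases before the start. RefSeq promoters were matched by symbol for 58 of the 76 receptors. TATAAA was found in 12.1% of these 58, against 12.9% of 33469 promoters of the same length, GGGCGG in 36.2% against 30.5%, and GAGGAA, the core of sites bound by ETS factors such as PU.1, in 29.3% against 23.3%. Receptors matched to no promoter included GPRC5C, GPR162, GPR75, CCR10, CCR7, P2RY6, ADORA2A, P2RY12, LPAR2, LPAR1, C5AR1, APLNR, F2RL1, ADRA1A, GPER1 and HCAR2.

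The levels of the receptors spanned a wide range in the male choroid plexus, and a few genes made up much of the total. Their TPM summed to 471 in the male, 408 in the female and 565 in the FACS library. Of the 76 genes, 11 were at or above 10 TPM in the male tissue, 26 were between 2 and 10 TPM, 22 between 1 and 2 TPM and 17 between 0.5 and 1 TPM. The 5 highest genes of the male tissue together held 221 TPM there, 204 TPM in the female and 196 TPM in the FACS library, or 46.8%, 50% and 34.7% of the receptor TPM. The same cut-off of 0.5 TPM was reached by 66 of the 76 in the female choroid plexus, where 96.6% of all genes transcribed in the male reached it. In the FACS library 69 reached it, as did 93.3% of all genes. All these genes were chosen by the cut-off in the male, where the receptors had a median of 1.80 TPM. The share of all genes at like levels was not computed, so nothing is read from these counts.

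**Figure D1:**
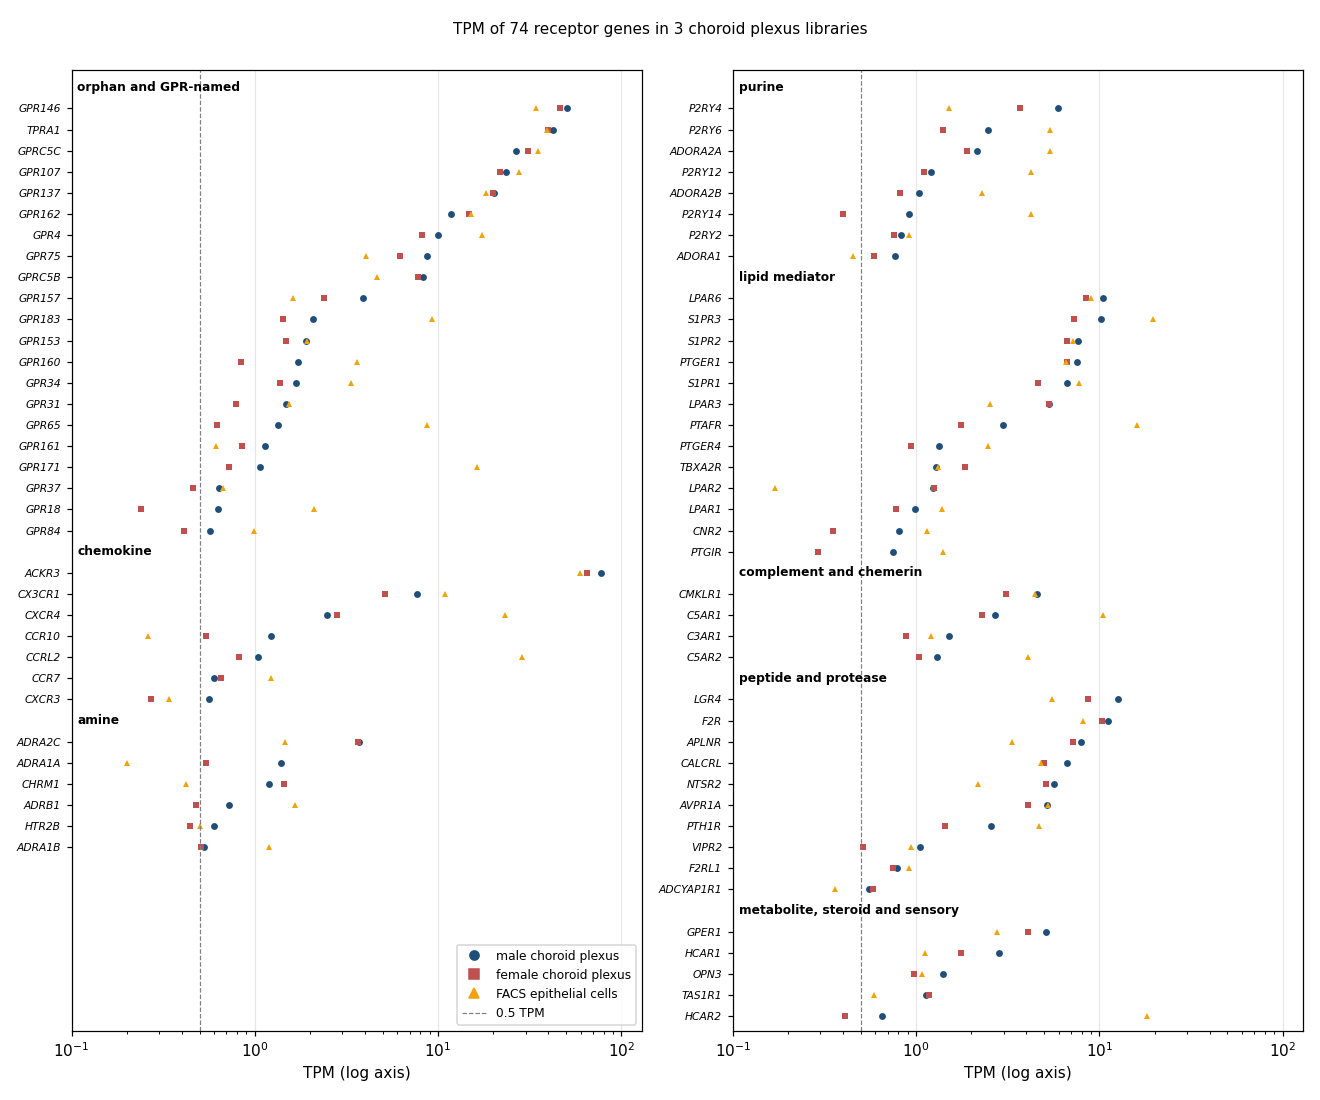
TPM of 74 of the receptor genes on a log axis, by class and ordered by the male level, in the male choroid plexus (circles), the female choroid plexus (squares) and the FACS epithelial cells (triangles). Each point is 1 library, the dashed line is 0.5 TPM, and ACKR3 is the highest gene at 77.7 TPM in the male tissue.

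ACKR3 (ENSRNOG00000019622), an atypical receptor that binds the chemokine CXCL12 and takes it up without activating G proteins, was the highest of the 76 genes. Its level was 77.7 TPM in the male choroid plexus, 65.2 TPM in the female and 59.6 TPM in the FACS library, from 3166, 2608 and 2555 expected counts. The level in the proximal tubule library was 0.99 TPM from 61 counts. All 3 choroid plexus libraries were thus far above the tubule, and the FACS library was the lowest of the 3.

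Among the orphan and GPR-named genes, GPR146 (ENSRNOG00000001288), a receptor linked to lipoprotein output of the liver, had 50.8 TPM in the male, 46.4 TPM in the female and 34.4 TPM in the FACS library. TPRA1 (ENSRNOG00000016665), a protein with 7 membrane helices first described in fat cells, had 42.5, 39.8 and 39.5 TPM in the same order. Neither gene had counts in the proximal tubule library. GPRC5C (ENSRNOG00000003144), a class C orphan induced by retinoic acid, was at 26.5, 31.0 and 35.0 TPM and thus highest in the FACS library. GPR107 (ENSRNOG00000023589), found mainly in the Golgi apparatus, had 23.3, 21.8 and 27.5 TPM. These genes rested on 1334 to 2604 counts in each choroid plexus library, so that counting error was small beside their levels. GPR137, a lysosomal protein, had 20.2, 19.9 and 18.2 TPM and the orphan GPR162 had 11.8, 14.7 and 15.2 TPM.

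The other orphan and GPR-named genes lay at or below 10 TPM in the male choroid plexus. GPR4, which senses protons and is known from endothelium, had 9.98 TPM in the male, 8.17 TPM in the female and 17.3 TPM in the FACS library. GPR75, GPRC5B and GPR157 had 8.68, 8.26 and 3.91 TPM in male tissue and 4.02, 4.64 and 1.61 TPM in the FACS library. The remaining 11 genes of the class, from GPR183 to GPR84, were between 0.57 and 2.07 TPM in the male.

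The chemokine class beyond ACKR3 was scarce in whole tissue. CX3CR1, the fractalkine receptor of monocytes and resident macrophages, had 7.67 TPM in male and 5.10 TPM in female tissue. CXCR4, the signalling receptor for CXCL12, had 2.46 and 2.82 TPM. CCR10, a receptor for CCL27 and CCL28, had 1.22 and 0.54 TPM, and CCRL2, which holds chemerin at the cell surface without signalling, had 1.04 and 0.82 TPM. CCR7 and CXCR3, receptors of migrating lymphocytes and dendritic cells, had 0.60 and 0.56 TPM in the male from only 17 and 19 counts.

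In the purine class, P2RY4, a receptor for UTP, led the whole male tissue with 5.95 TPM and stood at 3.68 TPM in the female. The UDP receptor P2RY6 had 2.46 and 1.40 TPM and ADORA2A, a Gs-coupled adenosine receptor, had 2.16 and 1.90 TPM. The ADP receptor P2RY12 had 1.21 and 1.10 TPM, ADORA2B, another Gs-coupled adenosine receptor, 1.04 and 0.82 TPM, and the UDP-glucose receptor P2RY14 0.92 and 0.40 TPM. P2RY2, which binds ATP and UTP, and the Gi-coupled ADORA1 were at 0.83 and 0.77 TPM in male and at 0.76 and 0.59 TPM in female tissue. Counts behind the male values of this class ran from 29 to 132, so that their order below P2RY4 is loosely fixed.

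The lipid mediator class was led by LPAR6, a receptor for lysophosphatidic acid, and by S1PR3 and S1PR2, receptors for sphingosine 1-phosphate, at 10.5, 10.2 and 7.64 TPM in the male choroid plexus. Of the complement and chemerin class, the chemerin receptor CMKLR1 had 4.55 TPM, the C5a receptor C5AR1 2.70 TPM and the C3a receptor C3AR1 1.51 TPM. The peptide and protease class was led by LGR4, the R-spondin receptor, at 12.7 TPM, the thrombin receptor F2R at 11.2 TPM and the apelin receptor APLNR at 7.91 TPM. ADRA2C and ADRA1A, adrenoceptors, and the muscarinic receptor CHRM1 were the highest amine receptors, at 3.70, 1.39 and 1.20 TPM. GPER1, a membrane estrogen receptor, the lactate receptor HCAR1 and the opsin OPN3 led the last class, at 5.11, 2.82 and 1.41 TPM.

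To determine which receptors were more or less abundant in the FACS epithelial cells than in the whole tissue, TPM of the FACS library was set against that of the male choroid plexus. The receptors lay higher in the FACS library than genes in general did. With log2 ratios taken relative to the median of the 13598 genes that reached 0.5 TPM in the male tissue, 30 of the 76 receptors were at least 2-fold higher, which is 39.5%, against 11.0% of all genes. P2RY4 was the 1 receptor at least 2-fold lower, against 7.43% of all genes, a count that depends on the pseudocount and the reference tissue. The 17 receptors between 0.5 and 1 TPM in the male tissue could not have been called lower even at 0 TPM in the FACS library. Nothing is therefore read from the small number of lower receptors. A total of 61 receptors lay above the median, as 50.0% of all genes do, and the median receptor lay 0.70 above it on the log2 scale. Ratios were formed as log2 of TPM plus 0.5, which draws scarce genes toward no change before centring. Centring on a median of -0.66 then moves them up. SLC34A1, with 0 TPM in both libraries, thus lay at 0.66, and CXCR3, at 0.607 times the male TPM, at 0.33. The number of receptors above the median and the receptor median of 0.70 are raised by this to an extent that was not measured. In bulk samples such as these, fewer cells of a type and less RNA per cell cannot be told apart.

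The choice of centre matters for the number of receptors on each side. The median of all genes was itself -0.66 in log2 TPM, and the 10 highest genes took 51.5% of the TPM in the FACS library and 35.6% in the male tissue. Without centring, 14 receptors were at least 2-fold higher and 11 at least 2-fold lower, with a receptor median of 0.03, and all 14 were among the 30. The share of all genes without centring was not computed for the FACS library, so these counts cannot be called many or few. Set against the female choroid plexus instead of the male, 33 receptors were at least 2-fold higher, of which 28 were so against both tissues.

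**Figure D2:**
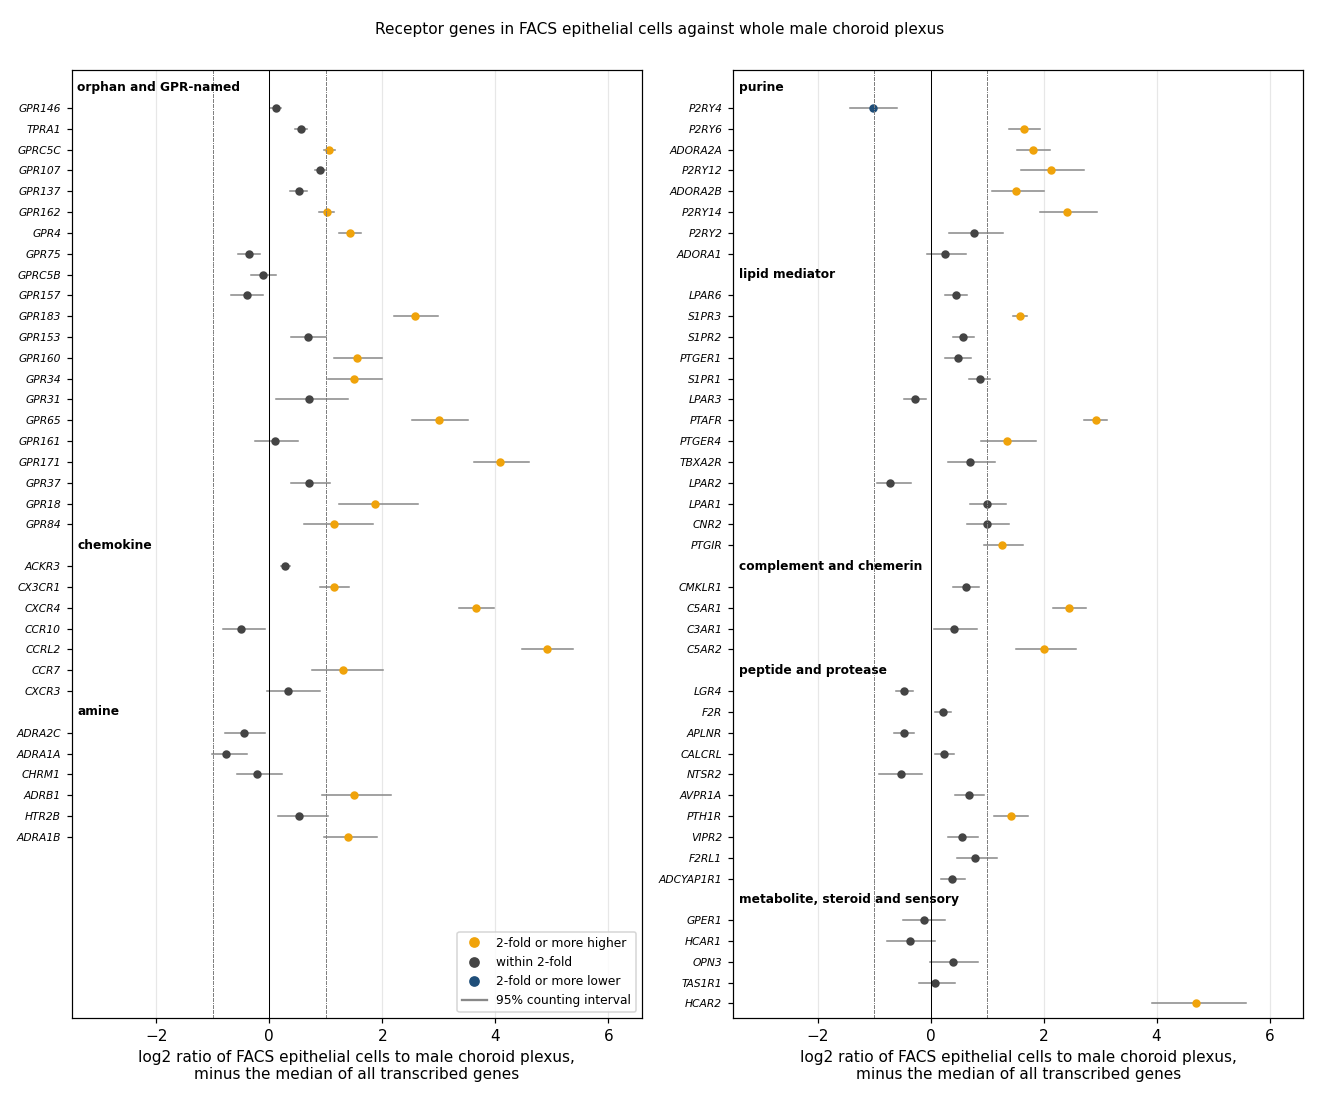
Log2 ratio of TPM plus 0.5 in FACS epithelial cells to male choroid plexus for 74 of the receptor genes, minus the median of all transcribed genes, with bars for the 95% counting interval. Orange points are at least 2-fold higher (29 genes), the blue point at least 2-fold lower (P2RY4), and the highest is CCRL2 at 4.91.

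The chemokine receptors included the largest differences. CCRL2 was at 1.04 TPM in male tissue and 0.82 TPM in female tissue but at 28.6 TPM in the FACS library, from 44, 34 and 1278 counts, which is 27.5 times the male TPM and a centred log2 ratio of 4.91 (95% counting interval 4.48 to 5.37). CXCR4 was at 23.1 TPM from 878 counts in the FACS library, or 9.38 times the male level, with a centred ratio of 3.66 (3.35 to 3.98). Both whole tissues were low and close to each other for these genes, and the FACS library stood apart. CX3CR1 had 11.0 TPM in the FACS library (centred 1.15) and CCR7 1.22 TPM (1.31). In all, 5 of the 8 chemokine receptors were at least 2-fold higher relative to all genes, against 11.0% of all genes. ACKR3 and CXCR3 did not pass, at 0.28 and 0.33, and their TPM was below the male value. CCR10 had 0.26 TPM from 10 counts and lay at -0.51.

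Most purine receptors were higher in the FACS library. P2RY12 had 4.22 TPM in the FACS library, P2RY14 4.26 TPM, ADORA2A and P2RY6 5.40 TPM each, and ADORA2B 2.29 TPM. These 5 of 8 were at least 2-fold higher, against 11.0% of all genes, with centred ratios of 2.13, 2.41, 1.81, 1.66 and 1.52. P2RY4 was at 5.95 TPM from 132 counts in male tissue, 3.68 TPM from 80 counts in female tissue and 1.51 TPM from 35 counts in the FACS library. Its centred ratio was -1.02 with a counting interval of -1.43 to -0.59, so that it lay just past the 2-fold line. With a pseudocount of 1 TPM it lay at -0.86, and with the female choroid plexus as the reference at -0.52, both within 2-fold. P2RY2 and ADORA1 stayed within 2-fold, at 0.76 and 0.25.

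Of the 21 orphan and GPR-named genes, 10 were at least 2-fold higher in the FACS library relative to all genes, against 11.0% of all genes. None was as much lower, against 7.43%, but scarce members such as GPR37 and GPR84 could not have been called lower. In plain TPM, GPRC5C and GPR162 of these 10 were only 1.32 and 1.29 times the male level. GPR171, a receptor for the peptide BigLEN, was at 1.07 TPM in the male, 0.72 TPM in the female and 16.4 TPM in the FACS library, from 38, 25 and 609 counts (centred 4.09). GPR65, a proton sensor of leukocytes, was at 1.33, 0.62 and 8.72 TPM (3.0), and GPR183, an oxysterol receptor that guides lymphocytes, at 2.07, 1.42 and 9.23 TPM (2.58). For these genes the FACS library exceeded both whole tissues several times over. GPR18, GPR160, GPR34, the lysophosphatidylserine receptor of microglia, and GPR84, which binds fatty acids, lay between 1.14 and 1.87, GPR4 at 1.43, GPRC5C at 1.06 and GPR162 at 1.02. Of the most abundant orphans, GPR107 lay at 0.90, TPRA1 at 0.56 and GPR146 at 0.11, and the signs of TPRA1 and GPR146 turn negative without centring (-0.10 and -0.55).

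Of the lipid mediator receptors 4 of 13 were at least 2-fold higher relative to all genes, against 11.0% of all genes. PTAFR, the receptor for platelet-activating factor, had 2.97 TPM in the male, 1.76 TPM in the female and 16.1 TPM in the FACS library (centred 2.92), S1PR3 had 10.2, 7.30 and 19.7 TPM (1.58), and the prostanoid receptors PTGER4 and PTGIR lay at 1.36 and 1.27. LPAR1 and CNR2, a cannabinoid receptor, were just under the 2-fold line. LPAR2 had 0.17 TPM from 8 counts in the FACS library, against 1.24 TPM from 52 counts in the male (-0.71), and with a pseudocount of 0.1 TPM it lay at -1.59, below P2RY4 at -1.19.

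Both C5a receptors were higher in the FACS library. C5AR1 had 2.70 TPM in the male, 2.28 TPM in the female and 10.5 TPM in the FACS library (2.45), and C5AR2 had 1.30, 1.04 and 4.09 TPM (2.01). CMKLR1 and C3AR1, the other members of the class, stayed at 0.63 and 0.42, and their FACS values of 4.44 and 1.20 TPM were below the male ones.

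The peptide and protease receptors moved less. PTH1R, the receptor for parathyroid hormone, was at 2.57 TPM in the male, 1.44 TPM in the female and 4.68 TPM in the FACS library (1.42). It was the 1 of 10 at least 2-fold higher relative to all genes, against 11.0% of all genes. LGR4 was at 12.7, 8.67 and 5.51 TPM (-0.47), APLNR at 7.91, 7.18 and 3.34 TPM (-0.47) and the neurotensin receptor NTSR2 at 5.67, 5.11 and 2.19 TPM (-0.53). Their TPM was thus under that of both whole tissues, by less than the 2-fold line once the shift of all genes was taken off. Of the amine receptors, ADRB1 and ADRA1B lay at 1.49 and 1.39 and ADRA1A, at 0.20 TPM from 9 counts, at -0.77, which became -1.59 with a pseudocount of 0.1 TPM. HCAR2, which binds niacin and the ketone body beta-hydroxybutyrate, had 0.65 TPM from 13 counts in the male, 0.41 TPM from 8 counts in the female and 18.2 TPM from 376 counts in the FACS library, with a centred ratio of 4.69 (3.92 to 5.59).

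The class medians in the FACS library, relative to all genes, were 1.59 for purine, 1.32 for complement and chemerin, 1.23 for chemokine, 0.90 for orphan, 0.87 for lipid mediator, 0.31 for peptide and protease, 0.20 for amine and 0.08 for the metabolite, steroid and sensory receptors. Without centring the first 5 medians stayed positive, at 0.93, 0.66, 0.56, 0.23 and 0.21, while the last 3 turned negative, at -0.35, -0.47 and -0.58. Counting intervals lay wholly above the median of all genes for 55 receptors and wholly below it for 11. The same share of all genes was not computed, so these counts describe counting error and not a trait of the receptors. Of the receptors matched to a promoter, 21 were at least 2-fold higher in the FACS library, and 19% of these held TATAAA, 28.6% GGGCGG and 33.3% GAGGAA, against 8.11%, 40.5% and 27% of the other 37. These shares rest on 4, 6 and 7 genes against 3, 15 and 10, and the differences were not tested.

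**Figure D3:**
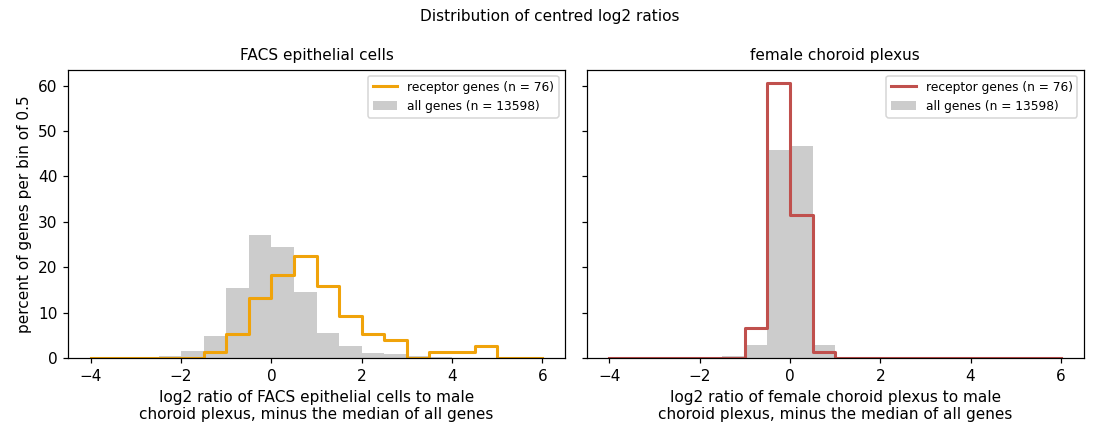
Percent of genes per bin of 0.5 in log2 ratio to the male choroid plexus, minus the median of all genes, for the 76 receptors (line) and all 13598 genes (grey bars, with values beyond the axis in the end bins), in FACS epithelial cells (left) and female choroid plexus (right). The receptors lie to the right of all genes in the FACS library, with a median of 0.70, and slightly to the left in the female, with a median of -0.09.

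In other receptor families of the male tissue, 4 of 15 adhesion receptors (26.7%), 6 of 40 receptor tyrosine kinases (15%) and 0 of 10 frizzled receptors with SMO were at least 2-fold higher in the FACS library. These calls are relative to all genes, of which 11.0% were higher. The family medians were 0.44, 0.33 and 0.14. Their median male levels were 3.47, 8.62 and 9.80 TPM, against 1.80 TPM for the 76 receptors. Medians of scarce genes are raised by the pseudocount and centring, and the part of level was not tested. With 1 library a side, no test of these differences between families could be made.

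The 4 named macrophage and leukocyte markers came to 836 TPM in the male choroid plexus, 546 TPM in the female and 4580 TPM in the FACS library, and lay between 0.95 and 3.55 relative to all genes. Relative to all genes, the 12 epithelial markers had a median of -0.06, with 2 of them at least 2-fold higher. The 6 endothelial markers with a name had a median of 0.89, with 2 higher. Of 5 mural and fibroblast markers with a name 1 was higher, with a median of -0.09. The share of all genes at least 2-fold higher was 11.0%. The part of these cell types in the receptor differences was not tested. The sort also included a digestion that the whole tissue did not undergo, and digestion and sorting cannot be told apart here.

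Of the genes that act beside the receptors, names were at hand for 8 of 28 G proteins, arrestins and regulators. Relative to all genes, 1 of these, GNAI2, which encodes an alpha subunit of Gi, was at least 2-fold higher in the FACS library (centred 1.04). None was as much lower. All genes gave 11.0% and 7.43%, so nothing is read from these counts. In plain TPM GNAI2 had 127, 111 and 165 in male, female and FACS, or 1.3 times the male level in FACS. Of 28 ligands and ligand-making enzymes 4 had a name, and 2 were at least 2-fold higher relative to all genes. In plain TPM these 2, RARRES2 and PTGDS, were 1.31 and 1.67 times the male level. RARRES2, which encodes chemerin, the ligand of CMKLR1 and CCRL2, was one of them, with 68.2 TPM in the male, 64.8 TPM in the female, 89.1 TPM in FACS epithelial cells and 26.4 TPM in the tubule (centred 1.05 in FACS). PTGDS, which makes prostaglandin D2, was the other, with 6204, 6392 and 10349 TPM (1.40). ENPP2, the autotaxin that makes lysophosphatidic acid for LPAR6, LPAR3, LPAR2 and LPAR1, had 7053, 5684 and 3039 TPM (-0.55). Of 65 receptors outside the list only GPR108 had a name in the sources, at 57.8, 52.0 and 55.4 TPM.

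To determine whether the receptors differed between male and female choroid plexus, the 2 whole tissue libraries were compared in the same way. In centred ratios with 0.5 TPM added, 0 of 76 receptors were at least 2-fold higher and 0 of 76 at least 2-fold lower in the female, against 0.390% and 1.18% of all genes. In plain TPM, with neither step, 11 receptors were at least 2-fold lower in the female and 0 higher, GPR18 resting on as few as 6 counts there. The share of all genes was not computed for plain TPM, so no sex difference is read from this count. The centred ratios had a median of -0.09, and 25 receptors lay above and 51 below the median of all genes, above which 50.0% of genes lie. The median of all genes was -0.17 in log2 TPM.

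Among the receptors lowest in the female, ADRA1A had 0.54 TPM from 23 counts against 1.39 TPM from 60 counts in the male (-0.69), GPR160 0.84 against 1.72 TPM (-0.56), CCR10 0.54 against 1.22 TPM (-0.55) and GPR65 0.62 against 1.33 TPM (-0.54). At the other end, TBXA2R, the thromboxane receptor, had 1.85 TPM against 1.28 TPM (0.57), GPR162 14.7 against 11.8 TPM (0.48), GPRC5C 31.0 against 26.5 TPM (0.39), CHRM1 1.45 against 1.20 TPM (0.37) and CXCR4 2.82 against 2.46 TPM (0.34). The lowest of these receptors rested on few counts in the female, and their differences are small beside those of the FACS library. The 4 macrophage and leukocyte markers with a name had a median of -0.41 in the female, the 6 endothelial markers one of -0.21 and the 12 epithelial markers one of -0.03, and their part in the receptor values was not tested. Counting intervals lay wholly above the median of all genes for 4 receptors and wholly below it for 19, and the same share of all genes was not computed.

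To determine which receptors are shared with another fluid-transporting epithelium, the proximal tubule library was examined. Most of the receptors were listed at 0 there. Of the 76, 64 were listed at 0, which is true of 58.6% of all 13670 genes transcribed in the male choroid plexus once mitochondrially encoded genes were removed, and 11 reached 0.5 TPM, against 40.5% of all genes. An exact 0 in this library may be a failed estimate, since 670 of the 1998 highest genes of the male tissue with a name, and 2 of 68 ribosomal protein genes, were also listed at 0. Only 7352952 of its counts were outside the mitochondrial genes. The shares of all genes were not computed at like levels, so no trait of the receptors is read from the 64 and the 11. The library carried the markers of its tissue, with the 7 proximal tubule markers that had a name summing to 3110 TPM, against 20.1 TPM in the male choroid plexus, and 5 markers of other nephron segments summing to 33.9 TPM.

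The 12 receptors with counts in the proximal tubule were compared after removal of the 13 mitochondrially encoded genes from both libraries, which raises the tubule values most. LPAR6 was the highest, with 18.5 TPM from 294 counts in the tubule and 11.5 TPM in the male choroid plexus. PTH1R, which in the proximal tubule lowers phosphate uptake, had 10.4 TPM from 209 counts against 2.80 TPM, and P2RY14 had 9.83 TPM from 148 counts against 1.0 TPM. PTH1R and P2RY14 were thus higher in the tubule than in the choroid plexus. CCR10 (3.80 against 1.33 TPM), GPR160 (3.84 against 1.88 TPM), GPR34 (3.59 against 1.82 TPM) and TAS1R1, a subunit of the umami taste receptor (1.86 against 1.23 TPM), also had the higher value in the tubule.

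Among the receptors with the lower value in the tubule, ACKR3 had 3.55 TPM against 84.7 TPM in the male choroid plexus and GPRC5C had 4.34 TPM against 28.9 TPM. LPAR3 had 0.18 TPM from 7 counts against 5.81 TPM. LGR4 (6.89 against 13.8 TPM) and CALCRL, which binds adrenomedullin or calcitonin gene-related peptide together with RAMP proteins (5.74 against 7.25 TPM), differed less. GPR146, TPRA1 and GPR107 were listed at 0, as were all 7 amine receptors, all 4 complement and chemerin receptors and 7 of the 8 purine receptors. Of all genes transcribed in the male choroid plexus 58.6% were also listed at 0. These 3 classes were scarce, with male medians of 1.06, 2.10 and 1.12 TPM. Their absence from the tubule is therefore not read from these counts.

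**Figure D4:**
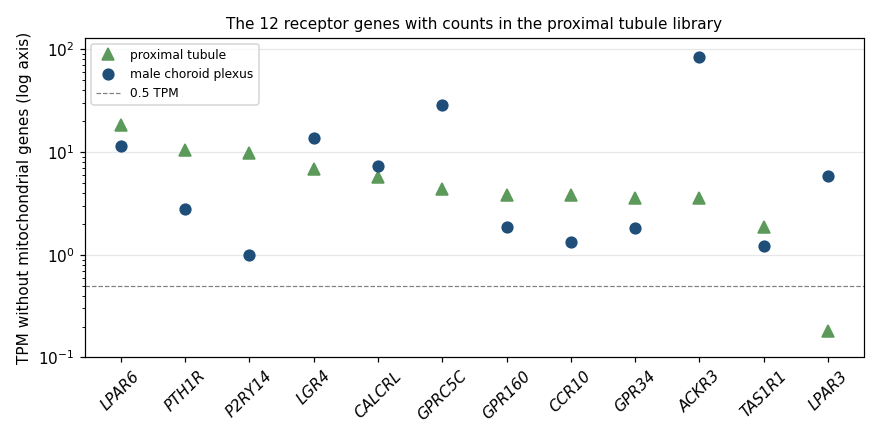
TPM after removal of mitochondrially encoded genes, on a log axis, of the 12 receptor genes with counts in the proximal tubule library (triangles) beside the male choroid plexus (circles). Each point is 1 library, the dashed line is 0.5 TPM, and LPAR6 is highest in the tubule at 18.5 TPM while ACKR3 is highest in the choroid plexus at 84.7 TPM.

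Without centring, 3 of the 12 were at least 2-fold higher in the tubule (P2RY14 at 2.78, PTH1R at 1.72 and CCR10 at 1.23), against 22.4% of the 5662 genes with counts in the tubule, and 3 at least 2-fold lower (ACKR3 at -4.40, LPAR3 at -3.21 and GPRC5C at -2.60), against 51.8%. The median of all genes was -3.00, since over 50% of them were listed at 0, and relative to it 9 of the 12 were at least 2-fold higher, against 63.5%, and 1 lower, against 11.3%. A receptor with counts had passed a filter that more than 50% of genes did not pass, so nothing is read from these last counts.

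The receptors overlap other genes in part, and the strandedness of the libraries is not given in the sources used here. In the RefSeq annotation the spans of 26 of the 76, introns included and on either strand, overlap that of another annotated gene. Among them are GPR146 and GPER1 with C12h7orf50, GPR171, P2RY12 and P2RY14 with Med12l, and GPR65 with Galc. GPR183 and GPR18 overlap Ubac2, P2RY4 overlaps Arr3, CCR10 overlaps Cntnap1 and LPAR6 overlaps Rb1. The same share of all genes was not computed. Whether the overlaps include exons was not examined. Where they do, reads of such pairs may not be told apart, and the values of these receptors are uncertain to that extent.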

How the data were processed

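The authors sequenced 1 pooled library per condition as 150-base paired-end reads, aligned them to the genome Rnor_6.0 (genes of Ensembl release 103) with STAR 2.7.2a and quantified genes with RSEM 1.3.3. The authors deposited for each gene an expected count, which need not be whole, a TPM scaled to 1000000 per library, and an FPKM, which was not used here. Receptors are the members of the study's list of G protein-coupled receptors, and gene names come from the study's lists, which name 2452 of 32883 IDs.

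From the deposited TPM, log2 ratios with a pseudocount of 0.5 TPM were computed and centred on the median of all genes that reached 0.5 TPM in the male choroid plexus, and a difference of 2-fold was counted. To compare with the proximal tubule, TPM was rescaled without the 13 mitochondrially encoded genes. Counting intervals are 95% Clopper-Pearson intervals on the split of expected counts between the libraries, put on the same log2 scale with the pseudocount. Python 3.11.15, numpy 2.4.6, pandas 2.3.3, scipy 1.17.1 and matplotlib 3.10.9 were used. The ratios were tested on simulated data drawn from the male counts. These were not set up to hold the shift of all genes in the FACS and tubule libraries, so its effect on scarce genes was not tested. Named with values are the 5 highest receptors, all chemokine and purine receptors, the 3 highest of every other class, and for each comparison the 5 highest and 5 lowest ratios among receptors with at least 30 counts in 1 library, and any other receptor was chosen after its values were seen. Of these receptors, 2 are counted in the totals but not reported here by name. The members and lists were chosen with earlier results of these data known. Marker lists were counted over the genes that had a name. Other pseudocounts, folds, universes, references and scalings were tried.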

Additional observations from a re-analysis of the deposited data

How the results depend on the processing

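No paired analysis was possible because each group has 1 library. The count of receptors at least 2-fold higher in the FACS library stayed between 27 and 33 under other pseudocounts, gene universes, a count minimum, removal of the 10 highest genes and the female tissue as reference. It was 42 at a fold of 1.5, 15 at a fold of 3 and 14 without centring. The count lower there, 1 receptor, was 4 with a pseudocount of 0.1 TPM, 0 with 1 TPM, 11 without centring, 3 at a fold of 1.5, 0 at a fold of 3, 3 with the 10 highest genes removed and 0 against the female tissue. The count lower in the female, 0, was 2 with a pseudocount of 0.1 TPM, 1 without centring and 2 at a fold of 1.5. In the proximal tubule, the count higher was 3 without centring, against 9, and 7 when centred on genes at or above 0.5 TPM in both libraries, an alternative chosen after seeing the data. The count lower, 1, was 0 with a pseudocount of 0.1 TPM or a fold of 3, 3 without centring and 3 with the centring on both libraries. Without centring LGR4 lay at -0.95 and CALCRL at -0.31 in the tubule, both positive when centred. With 1 library a condition, differences between animals or preparations cannot be told apart from those between conditions, and receptors near 0.5 TPM rest on few counts, down to 6 in the female choroid plexus.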
